A study of Capra hircus with 20 samples.

Results

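The mRNA levels of secreted inflammatory signals were followed in cultured goat cells before and after the start of adipogenic induction. The study names these cells intramuscular and subcutaneous preadipocytes and adipocytes. The genes were 3 interleukin-6-type or interleukin-1-type cytokines (IL6, LIF, IL33), the growth factor CSF1, the chemokines CXCL8, CXCL12, CXCL14 and CCL2, the prostaglandin enzyme PTGS2 and the cathelicidin MAP28. They were chosen by name, and the transcripts listed under each gene symbol were summed. Of the 10 genes, 9 were found among the 20587 symbols of the mRNA table; CCL2 had no match by symbol and is not analysed here. The mean over all libraries reached 1 FPKM (fragments scaled to transcript length and to the mapped reads of the library) for 8 of the 9, and CXCL14 stayed under it.

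The study took cells from the longissimus dorsi muscle and the subcutaneous fat of male Jianzhou Daer goats at 7 days of age, grew them to passage 3 and induced them with oleic acid. The libraries are intramuscular preadipocytes (IMPA) and adipocytes (IMA) and subcutaneous preadipocytes (SPA) and adipocytes (SA), with 5 libraries in each of the 4 groups. Preadipocytes were harvested on day 0 and adipocytes on day 3 of induction, and no group was grown without oleic acid for the same time, so induction and time in culture cannot be told apart. The methods give n = 5 goats as the source of both tissues. They call the 5 libraries of a group biological replicates, without giving the goat behind each number. The main fits hold no term for the goat and treat the libraries as independent.

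Cytokines and chemokines are small secreted proteins that act on receptors of the same or neighbouring cells. IL6 and LIF signal through the shared receptor chain IL6ST to JAK kinases and STAT3, while NF-kB factors switch on IL6, CXCL8 and PTGS2 in many stromal cells when these sense microbes or IL1. Adipose stromal cells are a known source of such factors, which recruit leukocytes and can slow fat cell formation. Cathelicidins are antimicrobial peptides best known from neutrophil granules.

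The libraries were first compared with the names of their groups. The transcripts of the mRNA table summed to between 373889 and 413880 FPKM per library, and between 27518 and 32122 of 43766 transcripts were above 0. Of the adipocyte markers, 6 of 7 were found, all but FABP4. Their sum was only 1.86 to 2.91 FPKM in IMA and 6.84 to 8.06 FPKM in SA. It was 2.08 to 2.68 FPKM in IMPA and 5.36 to 7.18 FPKM in SPA. ADIPOQ, the fat cell hormone adiponectin, had a mean of 0.214 FPKM in IMA and 0.349 in SA. CIDEC had a mean of 4.65 FPKM in SPA and 4.35 in SA. The 7 skeletal muscle markers summed to between 2383 and 2747.7 FPKM in IMPA and between 8010.6 and 8542.8 in IMA, against 7.88 to 19.7 FPKM in the subcutaneous groups. The intramuscular libraries therefore hold RNA of muscle genes, whose sum was higher after induction. Within this list MYOD1 was lower in IMA, at a mean of 26.1 FPKM against 43.2 in IMPA. The means of MYOG, DES, MYLPF, ACTN2, TNNT3 and CKM were higher in IMA. The adipocyte markers summed to no more than 2.91 FPKM in these libraries at both stages. The fibroblast and preadipocyte list summed to 2677.2 to 3059.9 FPKM in IMPA and 2783.3 to 2957.7 in IMA, against 8509.2 to 9020.2 in SPA and 7309.8 to 7789.7 in SA, with the preadipocyte marker DLK1 at 0.157 FPKM or less in every group mean. The part of the muscle and fibroblast RNA in the differences between depots was not tested, and in bulk RNA fewer cells of a type and less RNA per cell cannot be told apart.

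Leukocytes, the classical source of several of these signals, left little trace. Of 13 leukocyte markers 12 were found and only CD14 and CD68 averaged 1 FPKM or more, while PTPRC, which encodes CD45 of all leukocytes, was listed at 0 in 12 of the 20 libraries and never passed 0.0107 FPKM. The list summed to 5.73 to 9.50 FPKM in IMPA, 11.4 to 13.8 in IMA, 18.0 to 20.03 in SPA and 14.7 to 17.8 in SA. The neutrophil list, with 5 of 6 markers found, stayed between 1.11 and 4.96 FPKM, and the 7 endothelial markers stayed between 0.629 and 1.21 FPKM.

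The neutrophil chemokine CXCL8 (interleukin 8) had the highest mean of the 9 genes in SPA and SA. Its single transcript XM_005681749.3 had 72.7, 85.8, 30.3, 80.1 and 2.68 FPKM in IMPA1 to IMPA5 and 163, 149, 102, 149 and 131 FPKM in IMA1 to IMA5. The subcutaneous libraries held 287, 266, 254, 240 and 245 FPKM in SPA and 363, 409, 437, 396 and 345 FPKM in SA. The order of the means was SA, SPA, IMA and IMPA (390 ± 36.6, 258 ± 18.7, 139 ± 23.4 and 54.3 ± 36.2 FPKM, SD, n = 5), and no neighbouring groups overlapped. On the scale of log2(FPKM + 1), which is used for every fold change here, CXCL8 was higher in SA than in SPA by 0.59 (SE 0.0671, limma adjusted p = 1.3e-05). In IMA it was higher than in IMPA by 1.94 (SE 0.717, adjusted p = 0.0338), an interval of 0.38 to 3.51 that reflects the spread among the IMPA libraries. That call was lost, at nearly the same size (1.88 to 1.96), when IMPA3, IMA1, IMA2, IMA4 or IMA5 was left out (adjusted p = 0.0560 to 0.0651).

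CXCL8, IL6, PTGS2, CXCL12 and LIF varied more among the IMPA libraries than within any other group. IMPA5 and IMPA3 held the lowest and second lowest value for 6 of the 8 genes that passed 1 FPKM, an order found in 10.29% of all 11432 genes tested. Against the median of the other 4 IMPA libraries, on FPKM + 1, IMPA5 was 21.0-fold lower for CXCL8, 6.36-fold lower for IL6 and 5.46-fold lower for PTGS2. Over the genes tested, 74 (0.647%) were at least 2-fold lower in IMPA5, against 4 to 13 genes in each of the other 19 libraries. Among those 74, chosen after their values were seen, stood the chemokines CCL20 and CCL5, the cytokines IL1A and CSF3, the complement gene CFB, the NF-kB inhibitors NFKBIA and TNFAIP3, and PTGES and PLA2G4A of prostaglandin synthesis. IMPA3 was second lowest for 65 of the 74 (87.84%). The 74 were picked for a low IMPA5, so this share cannot be set against the 10.29% of all genes. IMPA5 was lowest for 17.5% of all genes, and 1176 of all genes had IMPA5 lowest and IMPA3 second lowest. MAP28 took no part in this: it had 93.4 FPKM in IMPA5 and 101 in IMPA3, within the 89.2 to 102 FPKM of the other 3.

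**Figure D1:**
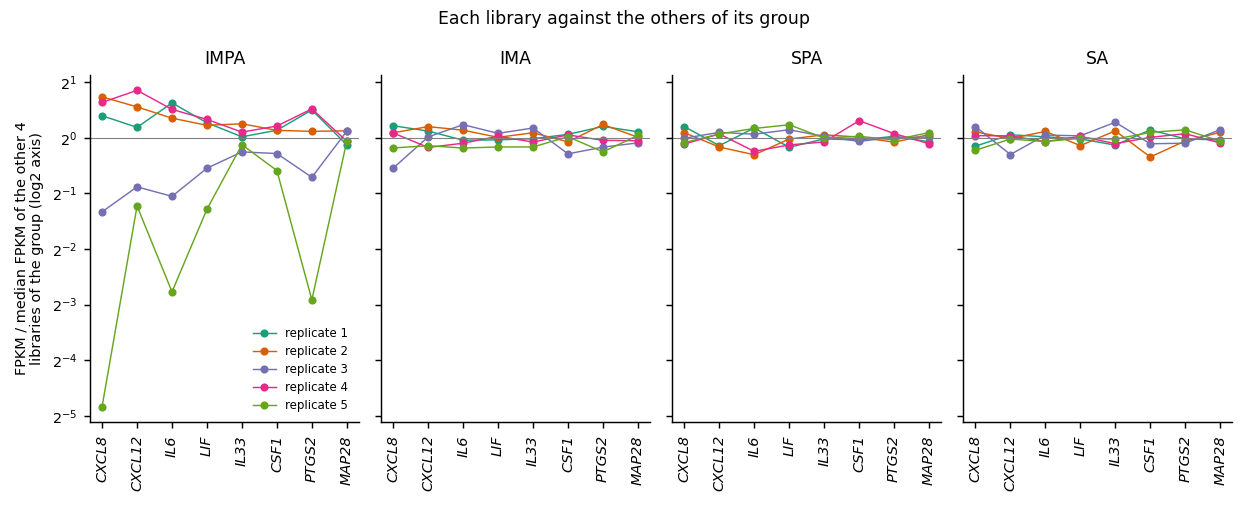
Ratio of each library to the median of the other 4 libraries of its group (log2 axis) for the 8 genes with a mean of at least 1 FPKM, in panels for IMPA, IMA, SPA and SA; colours mark replicate numbers. IMPA5 falls far below the other IMPA libraries for CXCL8, PTGS2 and IL6, with IMPA3 next, while MAP28 and the 15 libraries of the other groups stay near 1.

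In the SD of log2(FPKM + 1) over the IMPA libraries, CXCL8 stood at the 99.97th percentile of all genes tested, IL6 at 99.88, PTGS2 at 99.83, CXCL12 at 99.42 and LIF at 99.13. MAP28 stood at 47.14. In the other groups the percentiles of the 8 genes ran from 13.72 to 97.57, the highest again being that of CXCL8, in IMA. The alignment summary of the study lists the highest mapped shares of all libraries for the same pair, and a higher mapped share for every IMPA library than for any other. The part of the mapped share in these levels was not tested. Between IMPA and IMA it cannot be told apart from induction, and between IMPA and SPA it cannot be told apart from depot. What the unmapped reads hold was not examined here. The results of the 8 genes that involve IMPA are therefore also given without IMPA3 and IMPA5, an alternative added after the data had been seen. This pair stood out by its low values of these same genes. Every adjusted p and count without the pair is therefore a description and not an independent test. Without the pair CXCL8 rose by 0.78 from IMPA to IMA (adjusted p = 0.000444).

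IL6, which signals through IL6ST and STAT3 and is the best known cytokine of stromal fat cells, had higher means in the intramuscular than in the subcutaneous groups. It had 88.6, 76.6, 38.2, 81.7 and 11.6 FPKM in IMPA1 to IMPA5 and 73.5, 79.8, 85.5, 71.7 and 67.5 FPKM in IMA1 to IMA5. SPA held 12.4, 9.75, 11.8, 10.2 and 12.3 FPKM and SA 17.9, 19.0, 18.1, 17.1 and 17.2 FPKM. IMA libraries were thus all above SA libraries, and SA all above SPA, whereas IMPA overlapped with each of the other 3 groups, with SA and SPA through IMPA5 alone. IL6 rose from SPA to SA by 0.62 (SE 0.0654, adjusted p = 6.8e-06). From IMPA to IMA the difference was 0.64 with an interval of -0.33 to 1.60 (adjusted p = 0.232), and without IMPA3 and IMPA5 it was -0.12 (adjusted p = 0.184), so no change over induction was shown in the intramuscular cells.

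LIF, a cytokine of the same receptor family, was present at lower levels. Means were 14.3 ± 0.814 FPKM in IMA, 8.10 ± 0.356 in SA, 7.74 ± 2.58 in IMPA and 6.57 ± 0.597 in SPA (SD, n = 5). IMA libraries, at 13.0 to 15.2 FPKM, were above all others, while IMPA, at 3.83 to 9.83 FPKM, overlapped with SA and SPA, and SA stood just above SPA. LIF rose over induction by 0.87 in the intramuscular cells (SE 0.187, adjusted p = 0.00172), or 0.55 without IMPA3 and IMPA5 (adjusted p = 2.1e-05), and by 0.27 in the subcutaneous cells (SE 0.0582, adjusted p = 0.00217).

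IL33, an alarmin of the interleukin 1 family that is stored in the nucleus of stromal cells and released on damage, was higher in the subcutaneous cells at both stages. It had 19.8, 22.8, 16.9, 20.6 and 18.5 FPKM in IMPA and 32.4, 33.99, 36.1, 31.5 and 29.6 FPKM in IMA. SPA held 60.4, 62.9, 61.7, 58.1 and 60.8 FPKM and SA 51.6, 58.5, 65.1, 52.6 and 54.6 FPKM. Every IMA library was above every IMPA library and below every SA library, while SPA and SA overlapped. The rise from IMPA to IMA was 0.70 (SE 0.0739, adjusted p = 8.7e-06), or 0.61 without IMPA3 and IMPA5 (adjusted p = 3.6e-05), and the difference of SA from SPA was -0.11 with an interval of -0.23 to 0.01 (adjusted p = 0.124). That difference passed the threshold in some alternatives, at -0.18 with the mRNA sums made equal and -0.16 with quantile normalization or without SA3.

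The IL33 sum was steady although its 5 transcripts were not. XM_013965943.2 made up between 0% and 79.1% of the sum in single libraries and was listed at 0 in IMA2, IMA5, SPA1 and SA5. In SPA1, XM_005683681.3 held 89.9% of the sum, against 4.12% to 13.2% in the other 19 libraries. The most abundant transcript alone gave a difference of IMA from IMPA of the opposite sign, -0.76 (adjusted p = 0.555). With it, the differences of IMPA from SPA and of IMA from SA did not pass the threshold either (adjusted p = 0.519 and 0.715). The transcripts share exons, so only the sum was used for comparisons.

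**Figure D2:**
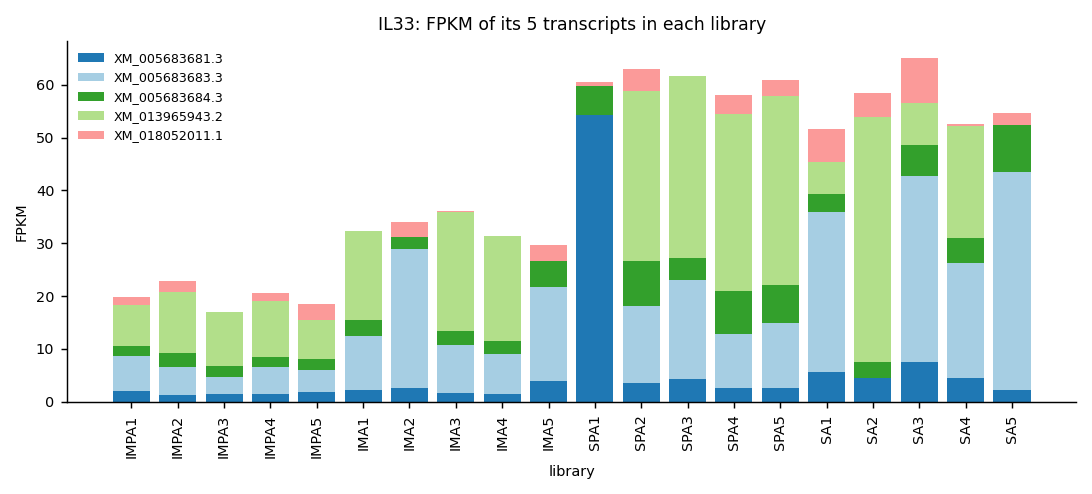
Stacked FPKM of the 5 IL33 transcripts in each of the 20 libraries. The height of the bars, the sum, is similar within each group and runs from 16.9 FPKM in IMPA3 to 65.1 in SA3, while the transcript that fills the bar changes between libraries of the same group, as in SPA1.

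CSF1, the growth factor of macrophages, differed least between the groups of the 8 genes tested. Means were 37.0 ± 3.87 FPKM in SPA, 34.2 ± 3.73 in SA, 26.9 ± 4.79 in IMPA and 21.5 ± 1.82 in IMA (SD, n = 5), and each overlapped with the next in this order. The fall from IMPA to IMA was -0.30 (SE 0.111, adjusted p = 0.0356), and -0.48 without IMPA3 and IMPA5 (adjusted p = 0.000187). With all 10 libraries this call was lost when IMPA1, IMPA2, IMPA4, IMA2, IMA3 or IMA5 was left out, with adjusted p between 0.0501 and 0.0862. The difference of SA from SPA was -0.11 with an interval of -0.29 to 0.07 (adjusted p = 0.276).

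CXCL12, the stromal chemokine that retains cells carrying CXCR4, was far lower in the intramuscular than in the subcutaneous cells. It had 18.0, 21.0, 10.6, 25.8 and 8.33 FPKM in IMPA and 6.38, 6.75, 6.09, 5.53 and 5.65 FPKM in IMA. SPA held 101, 99.7, 114, 112 and 112 FPKM and SA 62.2, 59.9, 49.2, 61.3 and 59.7 FPKM. The 4 groups did not overlap, and both depots were lower after induction. CXCL12 fell by 1.22 on the log2 scale from IMPA to IMA (SE 0.241, adjusted p = 0.000957), or by 1.66 without IMPA3 and IMPA5, and fell by 0.87 from SPA to SA (SE 0.0640, adjusted p = 2.6e-07). Transcript XM_018042300.1 held between 76.4% and 88.7% of the sum of its 3 transcripts in each library.

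CXCL14, a chemokine of epithelia and fat, was barely detected. Means were 0.295 ± 0.165 FPKM in IMPA, 0.471 ± 0.154 in IMA, 0.370 ± 0.1003 in SPA and 0.532 ± 0.199 in SA (SD, n = 5), and each group overlapped with every other. Exact two-sided permutation tests of 5 against 5 libraries, which cannot go below 0.00794, gave p = 0.127 for IMA against IMPA and p = 0.151 for SA against SPA (both 0.302 after adjustment over the 4 comparisons of this gene). Between depots the exact permutation p was 0.349 before and 0.643 after induction. Without IMPA2, SA4 and IMPA2, respectively, the unadjusted exact permutation p was 0.0317, 0.0317 and 0.0238 for IMA against IMPA, SA against SPA and IMPA against SPA.

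PTGS2 (cyclooxygenase 2), the inducible enzyme at the start of prostaglandin synthesis, was highest in subcutaneous preadipocytes. It had 62.3, 58.7, 61.8, 64.4 and 60.4 FPKM in SPA and 24.6, 24.2, 23.5, 25.7 and 27.0 FPKM in SA. IMPA held 17.5, 14.8, 9.87, 17.7 and 2.14 FPKM and IMA 13.9, 14.3, 11.7, 12.4 and 11.1 FPKM. All SPA libraries were above all SA libraries, and these above both intramuscular groups, which overlapped. PTGS2 fell by 1.27 on the log2 scale from SPA to SA (SE 0.0405, adjusted p = 1.9e-10). From IMPA to IMA its difference was 0.27 with an interval of -0.61 to 1.14 (adjusted p = 0.588), which turned to -0.20 (adjusted p = 0.258) without IMPA5 and to -0.37 (adjusted p = 0.00459) without IMPA3 and IMPA5.

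MAP28, a goat cathelicidin precursor (NM_001285546.1), was found at levels like those of the chemokines and with little spread. It had 89.2, 102, 101, 93.3 and 93.4 FPKM in IMPA and 146, 138, 130, 134 and 140 FPKM in IMA. SPA held 62.0, 65.9, 64.5, 60.6 and 67.5 FPKM and SA 238, 254, 262, 231 and 236 FPKM. The 4 groups did not overlap, in the order SA, IMA, IMPA and SPA. MAP28 rose by 1.91 from SPA to SA (SE 0.0429, adjusted p = 2.8e-11), a fold of 3.76 on FPKM + 1. From IMPA to IMA it rose by 0.52 (SE 0.0457, adjusted p = 2.3e-06), or 0.53 without IMPA3 and IMPA5.

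The other antimicrobial genes did not share this level. None of the 8 genes found of a list of 18 cathelicidins, S100 proteins and granule proteins reached a mean of 1 FPKM over the 20 libraries, and S100A8 was at 1.43 FPKM in SPA. In the gene order of the RefSeq assembly ARS1.2, MAP28 lies among other cathelicidin genes, of which MAP34-B, BAC7.5 and BAC5 never passed 0.0961 FPKM. The unnamed neighbours on both sides, LOC102181444 and LOC102170003, stayed at or below 0.490 and 0.0621 FPKM, and LOC102171106 at or below 0.788. Cathelicidin genes are close copies of each other, so how the alignment shared reads among them is uncertain. CDC25A, 3 genes from MAP28, had 1.90 ± 0.219 FPKM in IMPA, 1.24 ± 0.0939 in IMA, 1.74 ± 0.175 in SPA and 2.71 ± 0.326 in SA (SD, n = 5).

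**Figure D3:**
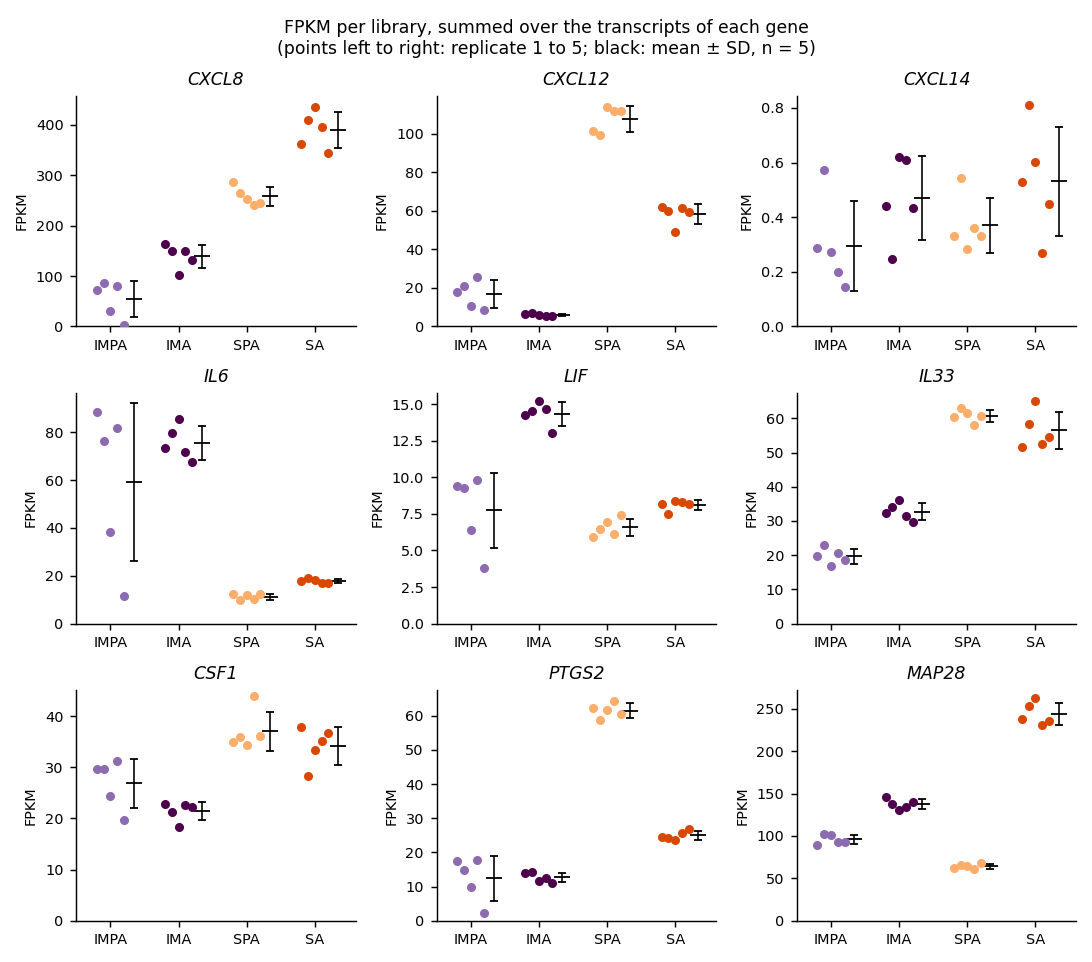
FPKM of the 9 genes in each of the 20 libraries, on linear axes from 0, with points for replicates 1 to 5 and the mean ± SD (n = 5) in black. CXCL8, CXCL12, IL33, CSF1 and PTGS2 have their highest means in subcutaneous cells and IL6 and LIF in IMA, while MAP28 is highest in SA and lowest in SPA.

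Over induction, 6 of the 8 genes tested passed an adjusted p of 0.05 in the intramuscular cells, 4 higher (LIF, IL33, CXCL8, MAP28) and 2 lower (CSF1, CXCL12). Of all 11432 genes 60.1% passed it there, 19.9% higher and 40.2% lower. In the subcutaneous cells 6 of 8 also passed, 4 higher (IL6, LIF, CXCL8, MAP28) and 2 lower (CXCL12, PTGS2), against 52.1% of all genes, 26.1% higher and 26.0% lower. The 5 libraries of each stage did not overlap for 5 of the 8 genes in the intramuscular and 6 of the 8 in the subcutaneous cells, against 43.5% and 38.8% of all genes. With 8 genes, these shares are not far from those of all genes. The median change of all genes was -0.09 and -0.01. Without IMPA3 and IMPA5 the intramuscular count was 7, with PTGS2 added among the lower genes, against 54.8% of all genes, 18.3% higher and 36.5% lower. With all 4 groups in one fit, IL6, LIF and CXCL8 lost the subcutaneous call (adjusted p = 0.128, 0.132 and 0.380), which left 3 genes. Their log2 changes stayed at 0.62, 0.27 and 0.59, while that fit pools the variance of all 4 groups, including IMPA.

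**Figure D4:**
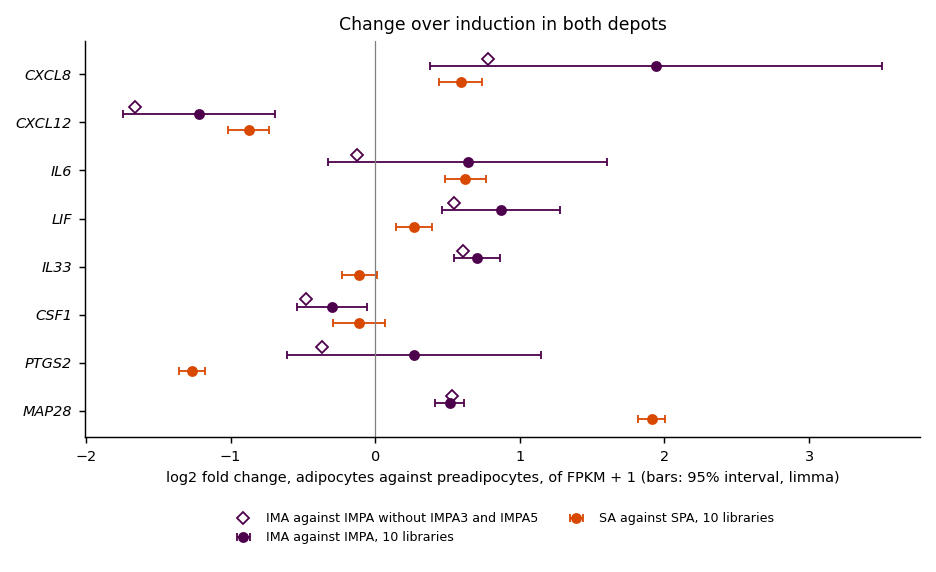
Change of log2(FPKM + 1) from preadipocytes to adipocytes with 95% limma intervals for the 8 genes tested, intramuscular in purple and subcutaneous in orange, and open diamonds for the intramuscular change without IMPA3 and IMPA5. LIF, CXCL8 and MAP28 lie above 0 and CXCL12 below 0 in both depots, and the wide intramuscular intervals are those of the genes that are low in IMPA5.

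An interaction term in a fit of the 20 libraries tested whether the change over induction differed between depots. It passed the threshold for 4 of the 8 genes, 3 of them changing more in the upward direction in intramuscular cells, against 55.3% of all genes, 20.7% with that direction and 34.6% with the other. MAP28 rose less in the intramuscular cells, by -1.40 (SE 0.0646, adjusted p = 1.4e-13). The intramuscular change was higher by 0.81 for IL33 (adjusted p = 4.3e-07), by 1.53 for PTGS2 (adjusted p = 0.00503) and by 0.60 for LIF (adjusted p = 0.0180). For CXCL8 the difference was 1.35 with an interval of -0.25 to 2.96 (adjusted p = 0.145), and for IL6 it was 0.01 with an interval of -0.98 to 1.01 (adjusted p = 0.981). Without IMPA3 and IMPA5, 7 genes passed, against 51.9% of all genes: IL6 at -0.75 (adjusted p = 6.2e-06), CXCL12 at -0.79 (adjusted p = 2.1e-05) and CSF1 at -0.36 (adjusted p = 0.0125) joined these 4, in which IL33 was at 0.72, PTGS2 at 0.90, LIF at 0.28 and MAP28 at -1.38. CXCL12 and CSF1 passed also without IMPA5 alone (adjusted p = 0.0276 and 0.0472).

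Between depots the same libraries enter as in the changes above, and the values are given side by side. The summed muscle and fibroblast markers move with the depot, as given above. The mapped share does so too: it was higher in every IMPA than in every SPA library, and in every IMA than in every SA library. Its part in these differences was not tested and cannot be told apart from depot. Before induction 7 of the 8 genes differed between IMPA and SPA, 2 higher and 5 lower in IMPA, where 75.1% of all genes differed, 42.3% higher and 32.9% lower. The libraries did not overlap for 6 of 8, against 63.4% of all genes. After induction all 8 tested differed between IMA and SA, 2 higher and 6 lower in IMA, against 72.4% of all genes, 29.0% higher and 43.4% lower, and none of the 8 overlapped, against no overlap in 58.6% of all genes. CXCL12 was lower in the intramuscular cells by -2.72 before and -3.07 after induction, CXCL8 by -2.85 and -1.50, PTGS2 by -2.46 and -0.93, IL33 by -1.58 and -0.77 and CSF1 by -0.46 and -0.65. IL6 was higher by 2.00 and 2.02. MAP28 was higher in IMPA than in SPA by 0.57 but lower in IMA than in SA by -0.82. LIF was higher in IMA by 0.75, and before induction its difference of 0.15 had an interval of -0.26 to 0.56 (adjusted p = 0.485), which became 0.35 (adjusted p = 0.00974) without IMPA5 and 0.47 (adjusted p = 6.1e-05) without IMPA3 and IMPA5. Without this pair all 8 genes tested differed between IMPA and SPA, as did 71.7% of all genes, by -1.69 for CXCL8, -1.83 for PTGS2, -2.28 for CXCL12, -1.49 for IL33, -0.28 for CSF1, 2.77 for IL6 and 0.56 for MAP28.

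The receptors of these signals were found at very unequal levels. IL6ST, the signalling chain for IL6 and LIF, had means of 60.2 and 42.2 FPKM in IMPA and IMA and 116 and 95.6 FPKM in SPA and SA, while IL6R, which IL6 binds first, had at most 0.358 FPKM in a group mean. Of 17 receptor genes 16 were found and 9 tested, and over induction 1 rose and 2 fell in the intramuscular cells (1 and 3 without IMPA3 and IMPA5), beside 19.9% and 40.2% of all genes. In the subcutaneous cells 4 fell and 0 rose by limma, also at an unadjusted p under 0.05, beside 26.0% and 26.1% of all genes. Every gene of the 4 lists here that is named for a call in IMA against IMPA kept its direction and call without IMPA3 and IMPA5, from -0.75 for CEBPD to 2.00 for IL1RN. IL6ST fell in both, by 0.50 and 0.27 on the log2 scale (adjusted p = 4.5e-06 and 5.8e-05). LIFR, the LIF receptor, rose by 0.27 (adjusted p = 0.000817) in the intramuscular and fell by 0.29 (adjusted p = 0.000430) in the subcutaneous cells.

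The 2 receptors of CXCL12 divided by depot. CXCR4 had means of 8.30 and 8.69 FPKM in IMPA and IMA and 0.0518 and 0.0688 FPKM in SPA and SA, where the ligand was highest. ACKR3, a scavenger receptor of CXCL12, had 45.2, 48.6, 128 and 129 FPKM in IMPA, IMA, SPA and SA. CXCR2, a receptor for CXCL8, fell from 2.64 ± 0.142 to 1.72 ± 0.290 FPKM from SPA to SA (SD, n = 5, log2 change -0.43, adjusted p = 0.000362) and was at 0.361 FPKM or less in the intramuscular means. CSF1R, the CSF1 receptor of macrophages, had at most 0.0408 FPKM in a group mean. IL1RL1, the IL33 receptor, had means of 0.0953 and 0.923 FPKM in IMPA and IMA and at most 0.0176 in the subcutaneous groups, and its partner chain IL1RAP fell from 27.5 to 22.9 FPKM from SPA to SA (log2 change -0.26, adjusted p = 0.00345). PTGER4, a receptor for prostaglandin E, fell from 6.44 to 4.83 FPKM from IMPA to IMA (log2 change -0.34, adjusted p = 0.00779).

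Of 36 other cytokines and chemokines 27 were found and 11 tested. In the intramuscular cells 5 rose and 0 fell by limma, with 1 lower at an unadjusted p under 0.05, beside 19.9% and 40.2% of all genes. Without IMPA3 and IMPA5, 5 rose and 2 fell, the latter being CSF3 and CXCL16, named after their values were seen. IL1RN, the natural antagonist of IL1, rose from 7.44 ± 1.66 to 36.3 ± 5.61 FPKM (SD, n = 5, log2 change 2.15, adjusted p = 1.8e-07), and it was at most 0.184 FPKM in a subcutaneous mean. IL1A, one of the ligands it blocks, rose by 1.56 (adjusted p = 0.000265), IL11 by 1.23 (adjusted p = 0.000117) and MIF by 0.74 (adjusted p = 4.5e-06). IL1A was low in IMPA5, at 0.778 FPKM, like the genes above, and rose by 1.13 without IMPA3 and IMPA5, as did IL11 by 0.92. In the subcutaneous cells 3 rose and 2 fell, beside 26.1% and 26.0% of all genes. CCL20, a chemokine for dendritic and T cells, rose from 24.9 to 67.3 FPKM (log2 change 1.39, adjusted p = 9.8e-10). IL1A rose by 1.05 (adjusted p = 9.6e-09) and IL18 by 0.26 (adjusted p = 0.00232), and CCL5 fell by 0.70 on the log2 scale (adjusted p = 7.7e-06). In the intramuscular cells CCL5 was higher after induction, with 0.239 to 15.7 FPKM in IMPA and 26.4 to 40.6 in IMA. Without IMPA3 and IMPA5 it rose there by 1.44 (adjusted p = 0.000171).

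Genes of NF-kB and STAT3 signalling that fell over induction outnumbered those that rose in the subcutaneous cells, and in the intramuscular cells their count depended on IMPA3 and IMPA5. Of 26 genes found and 23 tested, 3 rose and 12 fell from SPA to SA, beside 26.1% and 26.0% of all genes, and the list median was -0.21 beside -0.01. From IMPA to IMA 1 rose and 3 fell, beside 19.9% and 40.2% of all genes, and the list median was 0.01 beside -0.09. When that pair was left out, 1 rose and 11 fell, beside 18.3% and 36.5% of all genes, and the list median was -0.16. Those that joined the lower genes, named after their values were seen, include the NF-kB inhibitors NFKBIA (-0.44) and TNFAIP3 (-0.29) and the NF-kB subunits NFKB2 (-0.24) and RELB (-0.31). SOCS3, the feedback inhibitor of IL6ST signalling, fell from 22.8 ± 1.04 FPKM in SPA to 7.77 ± 0.360 in SA (SD, n = 5, log2 change -1.44, adjusted p = 1.6e-10) and rose by 0.27 from IMPA to IMA (adjusted p = 0.00131). STAT3 fell by 0.55, its kinase JAK1 by 0.52 and NFKBIZ, a nuclear cofactor of NF-kB, by 0.50 on the log2 scale from SPA to SA (adjusted p = 8.2e-08, 1.1e-07 and 1.9e-07). From IMPA to IMA, the NF-kB kinase subunits CHUK and IKBKG fell by 0.32 and 0.27 and the transcription factor CEBPD by 0.50 on the log2 scale (adjusted p = 0.000272, 0.00448 and 0.0126).

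Of 12 genes of prostaglandin synthesis and breakdown 11 were found and 8 tested. From SPA to SA, where PTGS2 fell, 2 rose and 4 fell, beside 26.1% and 26.0% of all genes. PTGES, which makes prostaglandin E from the PTGS2 product, fell from 236 ± 20.4 to 157 ± 17.7 FPKM (SD, n = 5, log2 change -0.59, adjusted p = 6.5e-05), and PLA2G4A, which frees the fatty acid used by PTGS2, fell from 94.3 to 71.9 FPKM (log2 change -0.39, adjusted p = 0.000109). PTGR1, which breaks prostaglandins down, fell by 0.42 on the log2 scale and the reductase AKR1B1 rose by 0.66 (adjusted p = 1.4e-06 and 4.9e-06). From IMPA to IMA 2 rose and 1 fell, beside 19.9% and 40.2% of all genes: PTGS1, the constitutive cyclooxygenase, rose from 0.804 to 2.53 FPKM (log2 change 0.96, adjusted p = 2.4e-06), AKR1B1 rose by 0.32 and PTGIS, the prostacyclin synthase, fell by 0.20 on the log2 scale (adjusted p = 0.000388 and 0.00359). With IMPA3 and IMPA5 left out, 2 rose and 2 fell, PLA2G4A being added at -0.15.

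Genes with the most similar profiles were looked for among all genes tested. Likeness was the root mean square difference of log2(FPKM + 1) over the 20 libraries after centring each gene, and the 3 nearest genes were taken for each gene whose group means span at least 1 log2 unit, which left out CSF1 with a span of 0.76. The libraries fall into 4 groups, so a small difference mainly reflects similar group means. MAP28 lay closest to NEIL3 (0.195), CDK1 (0.213) and CDCA2 (0.213), and IL33 to CAT (0.119), FXYD5 (0.126) and MLF1 (0.133). CXCL12 lay closest to ABI3BP (0.312), FAM65C (0.369) and CEMIP (0.387), and PTGS2 to ARG2 (0.347), PTGES (0.373) and ICAM1 (0.439). IL6 lay closest to TRPA1 (0.336), BDKRB1 (0.350) and PTHLH (0.434), and LIF to PLAUR (0.202), IL10RB (0.207) and IFNAR1 (0.226). CXCL8 had no gene as near, with CFB at 0.570, LOC102175889 at 0.603 and PLTP at 0.749.

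**Figure D5:**
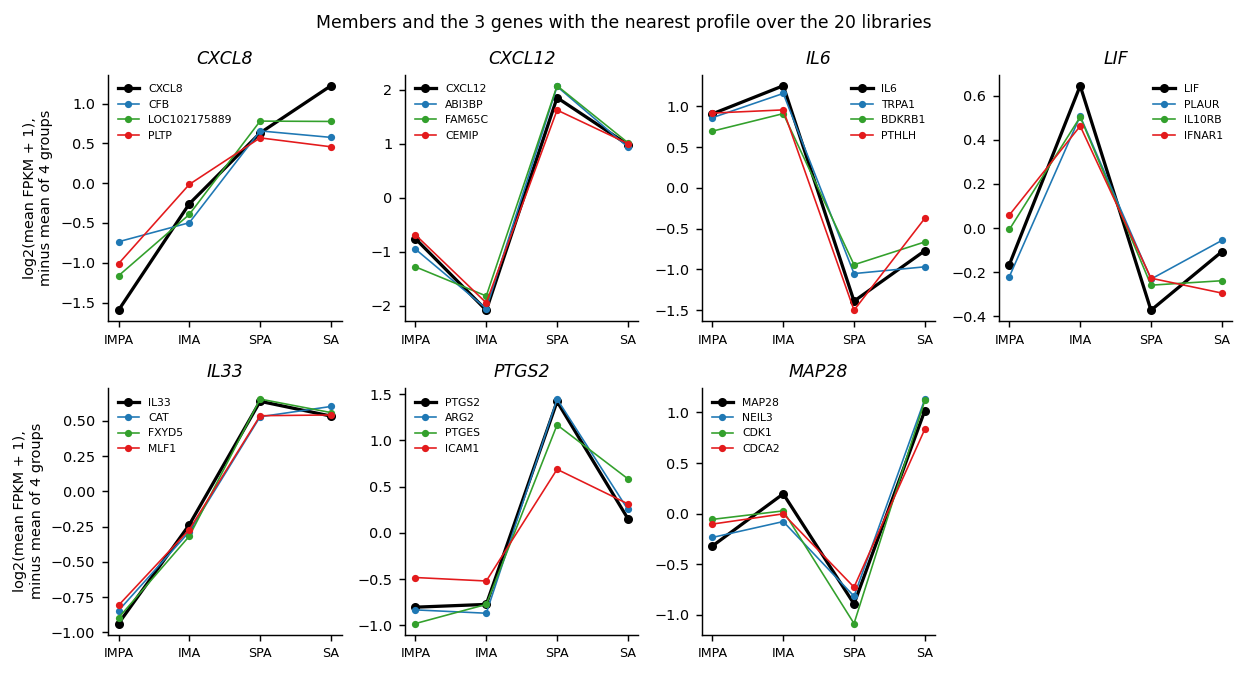
Group means of FPKM as log2(mean FPKM + 1), each gene centred on its own mean over IMPA, IMA, SPA and SA, for 7 genes (black) and the 3 genes nearest to each (coloured). MAP28, NEIL3, CDK1 and CDCA2 share a minimum in SPA and a maximum in SA, while the genes nearest to CXCL8 span less than CXCL8 itself.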

How the data were processed

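The values deposited by the authors are FPKM of single transcripts in each library. According to the paper they aligned strand-specific reads with HISAT2 2.0.4 to the goat assembly ARS1 and assembled transcripts with Scripture and Cufflinks. For the FPKM values it names StringTie 1.3.1, Ballgown and Cuffdiff. The submitters' processing notes also name GATK 2.6-5. FPKM divides fragments by transcript length and mapped reads. No counts were used here, so the depth behind a value is unknown. An FPKM of 0 can be a failed estimate.

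Transcripts were summed per gene symbol (6 symbols carry more than 1 gene identifier). Genes whose mean reached 1 FPKM (11432) entered the tests as log2(FPKM + 1) with limma 3.58.1 in R 4.3.3, with a variance trend, in fits of 10 libraries per comparison and over 20 libraries for the interaction, and p-values were Benjamini-Hochberg adjusted over all genes. Every adjusted p in the text comes from these fits or, where an alternative is named beside it, from that alternative. The exception is CXCL14, which was under the filter and tested by exact permutation of library labels, also in R. Intervals are at 95%. The steps were tested on simulated data. Alternatives were a filter at 0.1 FPKM or none, a pseudocount of 0.1, upper-quartile, sum or quantile scaling, no variance trend, a replicate block, the most abundant transcript, all 4 groups in the fit, and leaving out each library or SPA1 and SA5 together. The genes and lists were chosen with earlier results of these data known. Named besides them are, per list and comparison, at most 4 called genes in order of p, defining markers and the 3 nearest profiles. Receptor levels and genes low in IMPA5 were picked after their values were seen. The lncRNA tables were not used here, and the alignment summary was read for the order of libraries only. No coordinates are given, since the names come from ARS1.2 and not from the assembly of the files.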

Additional observations from a re-analysis of the deposited data

Results flagged for a closer look

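Over the 36 combinations of gene and group, a single library stood far from the other 4 in 3, where chance gives about 1 in 20. LIF was lowest in SA2, with a gap to the next library of 0.751 of the group's range. CSF1 was highest in SPA4, with a gap of 0.801. CXCL12 was lowest in SA3, with a gap of 0.827. CXCL8, IL6 and PTGS2 in IMPA5 did not meet this measure, since IMPA3 lies between IMPA5 and the other 3 libraries.

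The change over induction differed between the depots by an interaction term in limma for 4 genes, with 0.603 for LIF, 0.813 for IL33, 1.533 for PTGS2 and -1.396 for MAP28 on the log2 scale. Without IMPA3 and IMPA5, these were 0.28, 0.72, 0.90 and -1.38.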

How the results depend on the processing

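Of 956 alternatives for a single gene and comparison, 905 kept the direction and the side of the threshold, 22 lost the call, 12 gained one and 17 reversed. Leaving out 1 library at a time gave 4 to 6 genes for IMA against IMPA, 6 to 7 for SA against SPA, 7 to 8 for IMPA against SPA, 8 for IMA against SA and 4 to 6 for the interaction. The most abundant transcript gave 3 genes for IMA against IMPA. All 4 groups in one fit gave 3 for SA against SPA, where IL6, LIF and CXCL8 lost the call (adjusted p = 0.128, 0.132 and 0.380) at unchanged log2 changes. That fit pools the variance of all groups, and the SD of log2(FPKM + 1) was 1.195, 0.4957 and 1.931 in IMPA against 0.1483, 0.1126 and 0.1021 in SPA for IL6, LIF and CXCL8. Without IMPA3 and IMPA5, which stood out by their low values of these same genes, the interaction count was 7.

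CXCL8 in IMA against IMPA lost its call with no filter (adjusted p = 0.0918), with the most abundant transcript (0.0654) and without IMPA3, IMA1, IMA2, IMA4 or IMA5 (0.0560 to 0.0651), and so did CSF1 with no filter (0.0870), quantile normalization (0.0741) and the most abundant transcript (0.0709). With the most abundant transcript, IL33 lost its calls in IMPA against SPA, IMA against SA and the interaction (limma adjusted p = 0.519, 0.715 and 0.954). With no filter, CXCL8 and CSF1 kept their log2 changes of 1.94 and -0.30, and only the other genes of the fit differed. The same holds for CXCL8 with the most abundant transcript, since it has a single transcript. The cause of the other losses was not tested.

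Reversed were IL33 in IMA against IMPA with the most abundant transcript (-0.76), IL6 (-0.12) and PTGS2 (-0.37) there without IMPA3 and IMPA5, and PTGS2 without IMPA5 (-0.20; its range without 1 library was -0.20 to 0.45). The interaction of CSF1 was 0.094 with the most abundant transcript. That of IL6, near 0, was -0.0053 with a pseudocount of 0.1, -0.0314 without SPA1 and SA5, -0.75 without IMPA3 and IMPA5, and between -0.48 (without IMPA5) and -0.00084 (without SPA3) in the 7 reversals that left out 1 library (up to 0.23 in the others, without IMPA1), the rest being IMPA3 (-0.0667), IMA2 (-0.0060), IMA3 (-0.0306), SPA1 (-0.0183) and SPA5 (-0.0164). CXCL14 in IMA against SA was 0.0031 without IMA2 and 0.0078 without SA2.

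Whether the replicate numbers pair the libraries cannot be decided from these values, since the goat behind each number is not given. Deviations of same-numbered libraries correlated between 0.0417 and 0.121 in the intramuscular and between -0.242 and 0.122 in the subcutaneous groups. In these groups, 3 and 1 of 5 libraries correlated best with their own number. The replicate block left the counts at 6, 6, 7, 8 and 4. The depth behind each value is unknown, so a gene near 0 such as CXCL14 could not be told apart from background.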
